A study of Rattus norvegicus with 18 samples.

Results

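Integrins and cadherins are 2 large families of cell adhesion receptors. The 55 genes described here, 22 integrin subunits, 16 cadherins and 17 protocadherins, were taken by symbol from the array annotation: every gene whose symbol follows the Itga, Itgb1 to Itgb8, Cdh or Pcdh pattern. They made up 55 of the 14217 genes named on the array and were read by 80 probe sets, of which the brightest per gene over all arrays stands for the gene. Total RNA of rat spinal cord material was hybridised to 18 single-channel Affymetrix arrays. Per the labels, 6 arrays carried material given bone morphogenetic protein (BMP) at 10 ng/mL and marked 4d, taken to mean 4 days, 6 carried material given ciliary neurotrophic factor (CNTF) at the same dose and time, and 6 were controls. The controls have neither a dose nor an entry of that kind. The descriptions of all 18 arrays, controls included, open with 14 NT, which is not explained and was not interpreted. The controls' timing relative to the other arrays is unknown, and this limit applies to every difference from control. The labels do not name the strain, the age, the genotype, the cell type, the culture or the BMP family member. The titles number the arrays 1 to 6 within each group, and arrays are named by these numbers. The titles also hold a letter, B for BMP, C for CNTF and F for the controls, and what F stands for is not explained. Whether a group's arrays stem from different cultures or animals is not stated, and the p-values cover the variation among the arrays at hand, some of which may be technical.

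Integrins are receptors of an alpha and a beta subunit that span the membrane and tie the extracellular matrix, or ligands on other cells, to the actin or, for alpha6 beta4, the keratin cytoskeleton. The alpha subunit largely sets the ligand: laminin, collagen, RGD-containing proteins such as fibronectin and vitronectin, or the counter-receptors of leukocytes. Classical cadherins bind the same kind of cadherin on a neighbouring cell in the presence of calcium and hold on to actin through beta-catenin and alpha-catenin, while protocadherins give weaker, more selective contacts and do not bind beta-catenin. In the developing spinal cord, laminin-binding integrins are known from oligodendrocyte lineage cells and astrocytes, N-cadherin from neural progenitors, and delta-protocadherins from restricted sets of neurons and glia.

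The 250 bases before the transcription start that RefSeq's promoter table lists are shown for 3 members because these genes carried 3 of the 4 smallest adjusted p-values for the difference between BMP and control. They come from RefSeq on the GRCr8 build and run 5′ to 3′ on the gene's strand. Itgb5 lies at chr11:80449374-80449623, Pcdh18 at chr2:135996827-135997076 and Pcdh15 at chr20:14824799-14825048, all on the minus strand. Capitals mark GGCGCC, a GC box bound by SMAD1 and SMAD5, the factors downstream of BMP receptors.
Itgb5: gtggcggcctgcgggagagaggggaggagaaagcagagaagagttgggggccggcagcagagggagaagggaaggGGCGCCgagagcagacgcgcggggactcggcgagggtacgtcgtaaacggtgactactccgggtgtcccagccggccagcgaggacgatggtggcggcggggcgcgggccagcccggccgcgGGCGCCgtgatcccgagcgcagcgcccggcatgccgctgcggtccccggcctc
Pcdh18: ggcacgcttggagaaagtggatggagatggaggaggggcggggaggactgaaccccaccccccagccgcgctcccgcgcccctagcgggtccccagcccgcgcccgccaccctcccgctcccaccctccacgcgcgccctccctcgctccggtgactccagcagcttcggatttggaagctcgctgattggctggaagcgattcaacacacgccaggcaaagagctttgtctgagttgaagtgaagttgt
Pcdh15: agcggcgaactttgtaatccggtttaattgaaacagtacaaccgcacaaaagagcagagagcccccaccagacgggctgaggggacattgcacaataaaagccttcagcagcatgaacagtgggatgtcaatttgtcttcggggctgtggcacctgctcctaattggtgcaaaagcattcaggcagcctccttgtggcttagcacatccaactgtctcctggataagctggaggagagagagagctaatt
Of the 55 members, 36 had a promoter in the RefSeq table, with 1 start per gene. In 12 of the 36 that start lies over 1000 bases inside the gene's RefSeq span, and for Pcdh15 670408 bases inside it, so the Pcdh15 stretch stands before the start of a shorter transcript and not before the gene's 5′ end. GGCGCC, which is its own reverse complement, was found in 3 of the 36 (8.33%), namely Itgb5 with 2 copies, Itga8 and Cdh23, against 8.69% of all 33469 promoters of this length. GTCTAGAC, also its own reverse complement and a palindrome bound by SMAD3 and SMAD4, was in none of the 36, against 0.173% of all promoters. TTCNNNGAA, the STAT site downstream of CNTF and likewise the same on both strands, was in 5 of 36 (13.9%), namely Cdh7, Itga11, Itga5, Itgam and Itgb6, against 7.67% of all promoters, and none of those 5 genes passed the test with CNTF. A match of letters is a description and not a bound site.

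With BMP, 12 of the 55 members differed from control, 8 higher and 4 lower, which is 21.8% of the members beside 6.01% of all 31042 probe sets tested (3.44% higher and 2.57% lower) and 7.24% of all named genes read by their brightest probe set. The higher ones were the integrin subunits Itgb5, Itgb4, Itga3 and Itga6, P-cadherin (Cdh3) and the delta-2 protocadherins Pcdh18, Pcdh8 and Pcdh19. The lower ones were Pcdh15, Pcdh17, Pcdh10 and Pcdhb9, all protocadherins. With CNTF, 4 members differed from control, Itga2b and Cdh6 higher and Cdh20 and Pcdh10 lower, which is 7.27% of the members beside 2.32% of all probe sets (1.58% higher and 0.738% lower) and 2.86% of named genes. These and all other adjusted p-values come from limma fitted across all probe sets with Benjamini-Hochberg adjustment, called under 0.05, on log2(intensity + 116.655). Differences on this scale understate changes of dim genes. In bulk RNA, fewer cells of a type and less RNA per cell cannot be told apart. The members were chosen with earlier results of these data known, so their shares are descriptions and not tests of the families.

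The median difference of the 55 members from control was 0.20 log2 with BMP, beside 0.01 over all probe sets, and 40 members were positive and 15 negative. With CNTF it was 0.05, beside -0.01. A fit with the title number as a block, which the correlation of same-numbered arrays allows, called 20 members with BMP beside 16.7% of all probe sets, and 6 members with CNTF beside 7.57%. It kept all 12 of the BMP calls named above, at limma adjusted p-values from 7.98e-07 (Pcdh18) to 0.0138 (Pcdh10). All calls in both comparisons were also kept when the constant added before the log2 was 16 or the table median of 746.4, but the size of the differences of dim genes depended on it. The 6 BMP arrays did not overlap with the 6 control arrays in 5 members, beside 2.83% of all probe sets, nor the CNTF arrays in 2 members, beside 1.97%. The BMP count was 4 (Itga3, Itgb5, Pcdh18 and Pcdh15) without all 3 arrays of number 2 and 7 without those of number 3. It was 8 without those of number 1, where 5 of the 12 calls were lost (Cdh3, Itga6, Itgb4, Pcdh10 and Pcdhb9). The CNTF count was 2 without CNTF array 5, without control array 1 or without control array 3. These counts, and the losses of calls given beside the members, come from fits without the block. The share of all probe sets called with arrays left out was not recorded. A general loss of calls therefore cannot be told apart from one in these members.

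**Figure D1:**
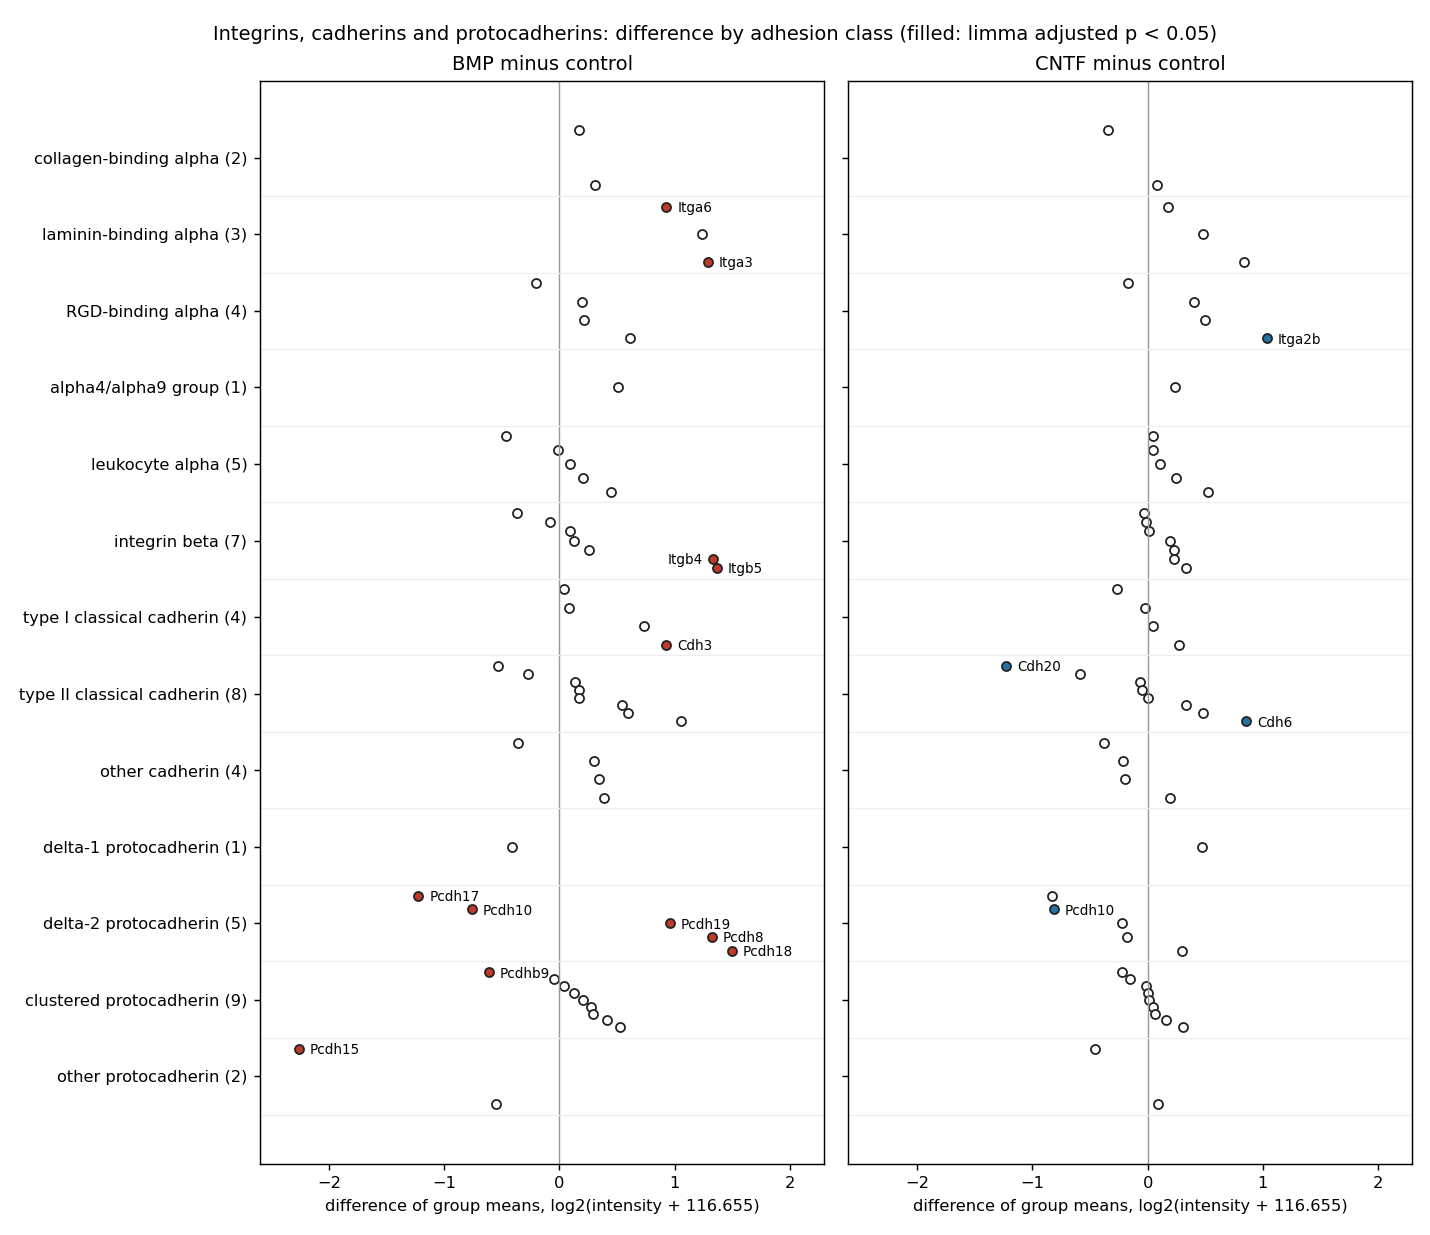
Difference from control of each of the 55 members, in log2(intensity + 116.655), for BMP (left) and CNTF (right). Rows are adhesion classes with their number of members in brackets, filled points passed the limma test, and within a class points are sorted by size. All 5 delta-2 protocadherins are filled with BMP, on both sides of 0.

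Among the alpha subunits, 2 of the 3 laminin receptors, Itga3 and Itga6, rose with BMP (66.7%, beside 6.01% of all probe sets called). Itga3, the alpha3 subunit that pairs with beta1 to bind laminins, read 753, 1030 and 1330 (lowest, median and highest intensity) on the 6 BMP arrays, 200, 660 and 816 on the CNTF arrays, and 299, 354 and 429 on the control arrays. Every BMP array lay above every control array, while the CNTF arrays spread across both. Itga3 was 2.45-fold higher with BMP than in control (log2 difference 1.29 ± 0.21 SE, n = 6 arrays each, limma adjusted p = 0.00127) and 0.48 higher with CNTF (adjusted p = 0.37). With the table median as the added constant the BMP difference was 0.70, and with 16 it was 1.51. Between BMP and CNTF the difference was 0.81 (adjusted p = 0.0254, 0.45 with the table median), higher in 6 of 6 same-numbered pairs. That last call was lost without BMP array 1 or 2 or CNTF array 1, with adjusted p-values of 0.0545, 0.0643 and 0.0518.

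Itga6, the alpha6 subunit shared by the laminin receptors alpha6 beta1 and alpha6 beta4, read 2980, 6290 and 9450 with BMP, 2420, 3860 and 5030 with CNTF, and 2400, 3020 and 5620 in control. The BMP and control ranges overlapped. BMP array 3, at 2980, lay below control arrays 4, 5 and 6, and control array 6, at 5620, stood apart from the other controls. Itga6 was 1.90-fold higher with BMP (0.93 ± 0.25, adjusted p = 0.0304, higher in 6 of 6 pairs), and a pair of its other probe sets gave 1.14 and 1.06 (adjusted p = 0.0114 and 0.0178). The call of the brightest probe set was lost without BMP array 1, 5 or 6 or control array 1, 2, 3 or 4, at adjusted p-values from 0.0506 to 0.078. The dimmest of the 4 Itga6 probe sets gave -0.11 (adjusted p = 0.807). Against CNTF, Itga6 was 0.76 higher with BMP (adjusted p = 0.084, and 0.00277 with the title number as a block), and without BMP array 3 the difference was 0.96 (adjusted p = 0.0137).

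Itga7, the alpha7 subunit of a laminin receptor best known from muscle, completed the class. It read 616, 1980 and 4190 with BMP, 615, 1820 and 2260 with CNTF, and 101, 1030 and 1750 in control. It was higher with BMP in 6 of 6 same-numbered pairs, by 1.23 ± 0.54, but the spread within groups was wide (adjusted p = 0.209, and 0.0169 with the block; difference 0.75 with the table median). With CNTF the difference was 0.83 (adjusted p = 0.647), and 0.45 either with the table median or without control array 5, whose pair alone differed by 3.09. None of the 3 laminin-binding alpha subunits passed the test with CNTF.

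The other alpha subunits were mostly dim. Of the 12 genes, 10 had every group mean below the table's median intensity of 746.4, the exceptions being Itgav and Itgae. Itgav, which pairs with several beta subunits to bind vitronectin and fibronectin, read 4080, 5720 and 7280 with BMP, 3800, 5960 and 8190 with CNTF, and 5170, 6660 and 8240 in control. Its 3 groups overlapped, with a difference from control of -0.20 with BMP (95% interval -0.55 to 0.14, adjusted p = 0.588) and -0.17 with CNTF (-0.51 to 0.17, adjusted p = 0.825). Itgae, which with beta7 binds E-cadherin, read 1560, 1910 and 2260 with BMP, 1650, 1820 and 2050 with CNTF and 1480, 1810 and 2120 in control, groups that again overlapped.

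Itga2b, the alpha subunit of the platelet fibrinogen receptor, was the only integrin that passed the test with CNTF. It read 232, 417 and 723 with CNTF and 90.8, 161 and 256 in control, and only the lowest CNTF array lay within the control range. The gene was 2.05-fold higher with CNTF (1.03 ± 0.22, adjusted p = 0.0128, higher in 6 of 6 pairs), a difference of 0.41 with the table median as the added constant and 1.41 with 16. With BMP it read 158, 343 and 402, a difference from control of 0.61 (adjusted p = 0.112). BMP and CNTF differed by -0.42 (adjusted p = 0.345), so a difference between the factors was not shown.

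Among the other RGD-binding subunits, Itga5, the fibronectin receptor, read 156, 461 and 604 with BMP, 405, 461 and 669 with CNTF and 180, 314 and 396 in control. It is named after its values were seen, since its CNTF arrays all lay above its control arrays, yet its difference of 0.50 did not pass (adjusted p = 0.374). Itga8, another RGD receptor, read 142, 467 and 598 with BMP, 243, 431 and 942 with CNTF and 162, 329 and 561 in control and was not called. Its second probe set was higher in 6 of 6 pairs with each factor. That probe set gave 0.695 with CNTF (adjusted p = 0.0675, and 0.00258 with the block) and 0.53 with BMP (adjusted p = 0.118, and 0.00766 with the block). Itga9, which binds tenascin-C and osteopontin, read 116, 374 and 755 with BMP, 155, 252 and 339 with CNTF and 139, 178 and 303 in control (BMP difference 0.51, adjusted p = 0.32). The collagen receptors Itga1 and Itga11 were not called in any comparison, with medians of 379 and 263 with BMP, 180 and 169 with CNTF and 324 and 139 in control.

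Leukocyte alpha subunits gave no call. Itgam, which marks microglia and myeloid cells, read 11.2, 16.4 and 22.4 with BMP, 15.8, 22 and 65.2 with CNTF, and 8.41, 18.7 and 24.6 in control, near the bottom of the table. Itgal, Itgax and Itgad were also below the table median in every group. The 6 genes listed as microglia and leukocyte markers were likewise dim, and 0 of 6 passed the limma test in any comparison, also at an unadjusted p under 0.05.

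Among the beta subunits, Itgb5 and Itgb4 rose with BMP and the partner shared by most alpha subunits, Itgb1, was not called. Itgb5, which pairs with alphaV to bind vitronectin, read 2800, 4000 and 6710 with BMP, 954, 1290 and 2710 with CNTF, and 1110, 1540 and 1820 in control. The BMP arrays lay above every array of both other groups. Itgb5 was 2.58-fold higher with BMP than in control (1.37 ± 0.24, adjusted p = 0.00186) and 2.64-fold higher than with CNTF (1.40, adjusted p = 0.00129). Its other probe sets gave 1.14 (adjusted p = 0.0114) and 0.46 (adjusted p = 0.169) against control, and CNTF differed from control by -0.03 (adjusted p = 0.988).

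Itgb4, which pairs with alpha6 in hemidesmosomes and in some glia, read 183, 729 and 1230 with BMP, 102, 152 and 303 with CNTF, and 111, 165 and 312 in control. Only BMP array 4 lay within the control range. It was 2.53-fold higher with BMP than in control (1.34 ± 0.31, adjusted p = 0.0117) and differed from CNTF by 1.32 (adjusted p = 0.0116), although every group mean was below the table median. With that median as the added constant both differences were 0.61, and with 16 they were 1.71 and 1.70. Within title numbers the Itgb4 difference was 1.79, 2.57 and 1.89 for numbers 1 to 3 and 0.29, 0.98 and 0.52 for numbers 4 to 6. Itgb5 showed the same split, with 2.05, 2.29 and 1.45 for numbers 1 to 3 and 0.69, 0.70 and 1.03 for numbers 4 to 6. All 12 differences were positive.

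Itgb1 read 19200, 24200 and 30600 with BMP, 18100, 21300 and 24900 with CNTF, and 18300, 20200 and 28300 in control. The 3 groups overlapped over most of their range. The difference from control was 0.13 with BMP (95% interval -0.14 to 0.40, adjusted p = 0.67) and -0.01 with CNTF (-0.28 to 0.26, adjusted p = 0.992). Its second probe set gave 0.31 with BMP, higher in 5 of 6 pairs (adjusted p = 0.124, and 0.0145 with the block), and 0.06 with CNTF (adjusted p = 0.936). Itgb3, the partner of alphaIIb and alphaV, read 7.66, 29.9 and 158 with BMP, 26.5, 163 and 190 with CNTF and 28.3, 116 and 176 in control, and Itgb2, the leukocyte beta subunit, had medians of 119 with BMP, 198 with CNTF and 148 in control. Neither was called, nor were the dim Itgb6 and Itgb7.

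**Figure D2:**
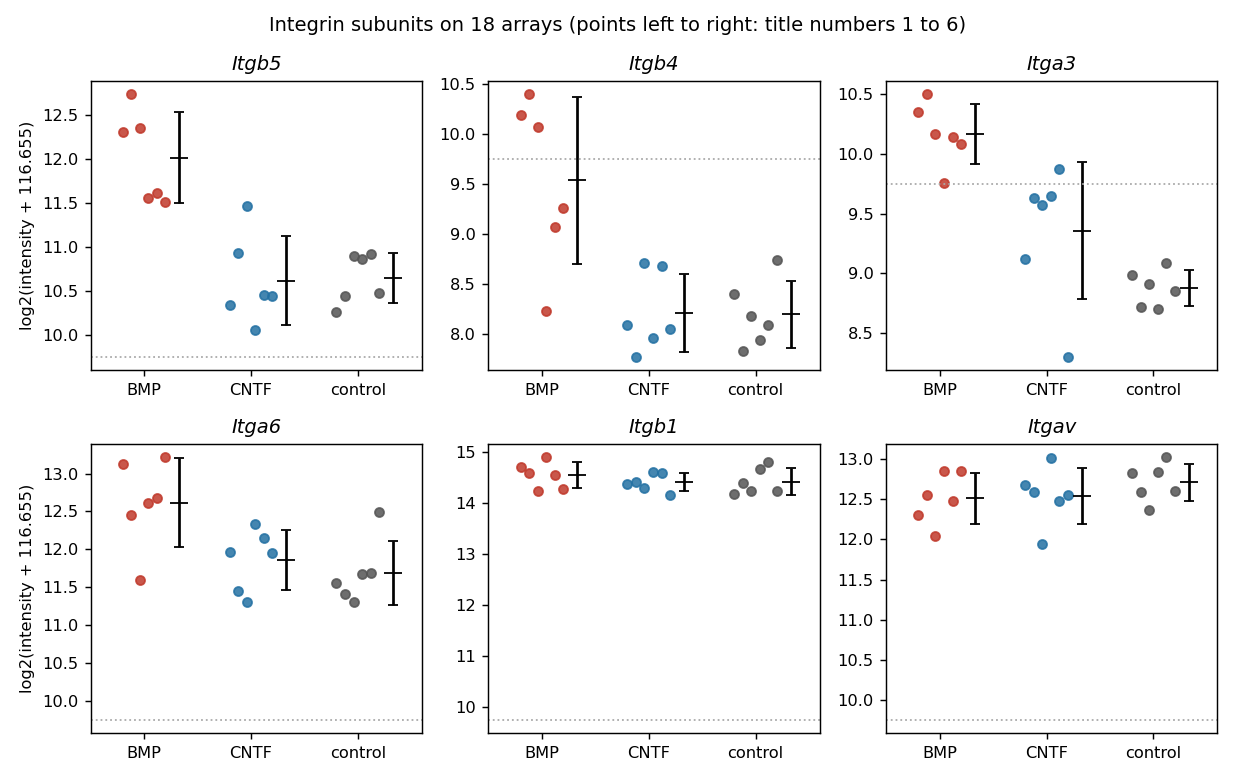
Each panel shows 1 integrin gene on 18 arrays, as log2(intensity + 116.655), with BMP left, CNTF in the middle and control right. The bar beside each group is the mean ± SD of 6 arrays and the dotted line is the table median of 9.75 log2. For Itgb5 and Itga3 the BMP points lie above every control point, while for Itgb1 and Itgav the groups overlap.

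Integrin ligands and the proteins that tie integrins to actin were read as lists chosen with earlier results of these data known. Their shares are descriptions and not tests of the lists. Of 20 ligand genes measured, 5 rose with BMP (25%, beside 6.01% of all probe sets called) and none fell, with a median difference of 0.64. They were periostin (Postn, 3.64, adjusted p = 0.00145), the laminin alpha2 chain (Lama2, 1.30, adjusted p = 0.00183), fibronectin (Fn1, 1.36, adjusted p = 0.00304), osteopontin (Spp1, 2.0, adjusted p = 0.0145) and Ccn2 (3.17, adjusted p = 0.0161), the last named after its values were seen. With CNTF 3 rose, Spp1 (7.02, adjusted p = 2.4e-08), Fn1 (1.49, adjusted p = 0.00218) and the leukocyte integrin ligand Icam1 (1.59, adjusted p = 0.0481), with a list median of 0.28. That is 15% of the ligands beside 2.32% of all probe sets. No ligand fell with CNTF, while 4 were lower at an unadjusted p under 0.05 and 3 with the block, with tenascin-C (Tnc) the lowest at -2.44 (adjusted p = 0.0647, and 0.000796 with the block). Of 21 focal adhesion genes, 3 rose with BMP, vinculin (Vcl, 0.52, adjusted p = 0.0111), filamin A (Flna, 1.11, adjusted p = 0.0139) and parvin alpha (Parva, 0.60, adjusted p = 0.0257). These are 14.3% of that list beside 6.01% of all probe sets. The list median was 0.07, and none fell, while 4 were lower at an unadjusted p under 0.05 and, with the block, 4 were higher and 4 lower, the lowest difference being -1.42 (Lims2, adjusted p = 0.0611). None of the 21 passed the limma test with CNTF, where an unadjusted p under 0.05 was seen in 3 higher and 3 lower genes.

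Among the type I classical cadherins, P-cadherin rose with BMP and N-cadherin was not called. Cdh3 (P-cadherin) read 423, 482 and 1430 with BMP, 117, 241 and 280 with CNTF, and 183, 285 and 414 in control. All BMP arrays were above all arrays of both other groups, BMP arrays 1 and 2 far above the other 4. It was 1.91-fold higher with BMP than in control (0.93 ± 0.26, adjusted p = 0.0348) and 2.29-fold higher than with CNTF (1.20, adjusted p = 0.00695), with every group mean below the table median. With that median as the added constant these differences were 0.45 and 0.56, and with 16 they were 1.15 and 1.51. The call against control was lost without BMP array 1 or 2 or control array 3, 5 or 6 (adjusted p from 0.0734 to 0.0945) and under quantile normalization (0.0668).

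Cdh1 (E-cadherin), which has no protein-coding gene between it and Cdh3 in the RefSeq order, read 15.6, 126 and 276 with BMP, 7.05, 10.5 and 104 with CNTF, and 7.37, 21.2 and 81.8 in control. Its difference of 0.73 with BMP, higher in 5 of 6 pairs, did not pass (adjusted p = 0.0793, and 0.0349 with the block). The second Cdh1 probe set, also dim, gave 0.08 with BMP (adjusted p = 0.877, and 0.805 with the block). Cdh2 (N-cadherin), the main cadherin of neural progenitors, read 10900, 12500 and 14000 with BMP, 10400, 11700 and 14500 with CNTF, and 11300, 12300 and 12900 in control. The difference was 0.04 with BMP (95% interval -0.13 to 0.21, adjusted p = 0.869) and -0.03 with CNTF (-0.19 to 0.14, adjusted p = 0.969). Its second bright probe set gave 0.27 with BMP, higher in 6 of 6 pairs (adjusted p = 0.18, and 0.0122 with the block), and 0.14 with CNTF (adjusted p = 0.747). The other type I member, the muscle cadherin Cdh15, was dim and not called.

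Of the 8 type II classical cadherins, which share the catenin link but differ in how the outer domains meet, none passed the test with BMP, while with CNTF Cdh20 fell and Cdh6 rose. With the title number as a block, 3 were higher with BMP (Cdh6, Cdh7 and Cdh11) and 1 was lower (Cdh10), beside 16.7% of all probe sets called. For CNTF that fit called 1 higher (Cdh6) and 2 lower (Cdh20 and Cdh11), beside 7.57% of all probe sets. Cdh20 read 818, 1120 and 1350 with CNTF and 1940, 2800 and 3180 in control, with no overlap. It was 2.34-fold lower with CNTF (-1.23 ± 0.17, adjusted p = 0.000288, lower in 6 of 6 pairs), with differences within title numbers between -1.66 and -1.02. With BMP it read 1600, 2160 and 3280, a difference from control of -0.28 (adjusted p = 0.436). BMP stood 0.95 above CNTF, with no overlap (adjusted p = 0.00182).

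Cdh6 read 606, 933 and 1300 with CNTF and 339, 399 and 677 in control, with some overlap. It was 1.81-fold higher with CNTF (0.86 ± 0.22, adjusted p = 0.0398, higher in 6 of 6 pairs), by 0.47 with the table median as the added constant. The call sat near the threshold and was lost, at adjusted p-values from 0.0501 to 0.109, without BMP array 2 or 6, CNTF array 2, 3, 5 or 6, or control array 1, 3, 4 or 5. With BMP, Cdh6 read 365, 816 and 1030, a difference of 0.60 from control (adjusted p = 0.12, and 0.0485 with the block). BMP and CNTF differed by -0.26 (adjusted p = 0.634).

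Cdh11 (OB-cadherin), named for osteoblasts and found in mesenchymal and glial cells, read 8340, 14500 and 19700 with BMP, 2980, 7140 and 7840 with CNTF, and 4630, 10800 and 13100 in control. All BMP arrays were above all CNTF arrays, and the controls lay across both. Cdh11 was 2.19-fold higher with BMP than with CNTF (1.13 ± 0.26, adjusted p = 0.0124). Against control neither factor passed, with 0.54 for BMP (adjusted p = 0.275) and -0.58 for CNTF (adjusted p = 0.388), whereas with the block both did (0.0106 and 0.0138). Without control array 4 the BMP difference was 0.35, and without CNTF array 4 the CNTF difference was -0.38. Its second probe set gave 0.94 between BMP and CNTF (adjusted p = 0.0261) and the third, dim one gave -0.30 (adjusted p = 0.383).

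Cdh10 and Cdh22 were the other bright type II cadherins. Cdh10 read 5160, 7610 and 11300 with BMP, 8950, 10100 and 13400 with CNTF, and 8700, 11300 and 13100 in control. It was lower with BMP in 6 of 6 pairs, by -0.53 ± 0.17 (adjusted p = 0.071, and 0.0205 with the block), and the pairs of numbers 1 to 3 differed by -1.25, -0.71 and -0.74 against -0.33, -0.09 and -0.07 for numbers 4 to 6. Cdh22 read 2860, 9630 and 12100 with BMP, 6190, 8400 and 11000 with CNTF and 4860, 6270 and 9150 in control, and its brightest probe set was not called. Its second probe set disagreed, at 1.20 with CNTF (adjusted p = 0.000518), -0.22 with BMP (adjusted p = 0.592) and -1.42 between BMP and CNTF (adjusted p = 6.65e-05).

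Cdh7 read 175, 533 and 1280 with BMP, 135, 367 and 611 with CNTF and 61.1, 217 and 412 in control, and was 1.06 higher with BMP (adjusted p = 0.0732, and 0.00122 with the block). Cdh8 and Cdh12 were dim and not called. In the group of other cadherins, Cdh13 (T-cadherin), which is held in the membrane by a lipid anchor and has no catenin-binding tail, read 5080, 9430 and 12000 with BMP, 6190, 8380 and 12700 with CNTF, and 8090, 11900 and 15000 in control. Its groups overlapped, with differences from control of -0.36 for BMP (95% interval -0.79 to 0.06, adjusted p = 0.37, and -0.20 without BMP array 4) and -0.38 for CNTF (-0.80 to 0.05, adjusted p = 0.533). Cdh16, Cdh17 and Cdh23 were dim and not called.

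**Figure D3:**
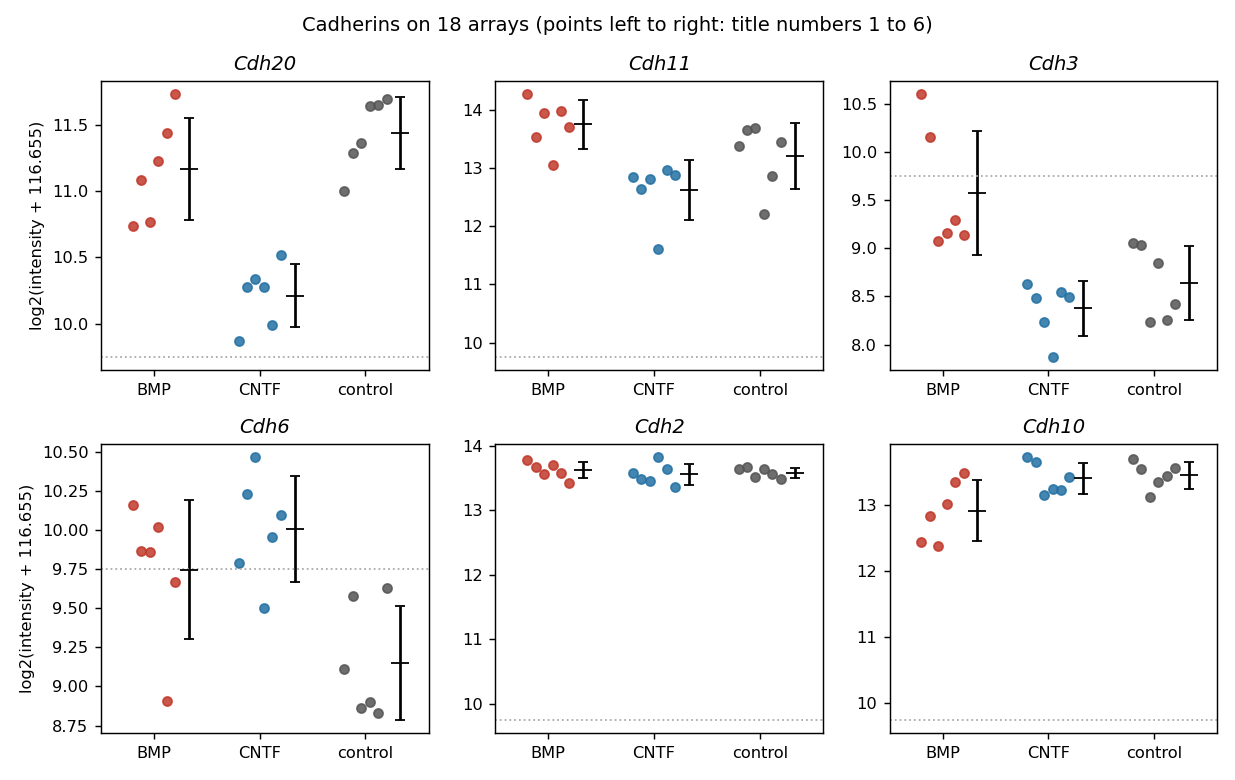
Each panel shows 1 cadherin gene on 18 arrays, as log2(intensity + 116.655), with BMP left, CNTF in the middle and control right, the mean ± SD of 6 arrays beside each group and the table median as a dotted line. The CNTF points of Cdh20 lie below every BMP and control point, the BMP points of Cdh3 lie above all others, and those of Cdh2 overlap with both groups.

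Of 11 catenin and junction genes, 1 rose with BMP, alpha-catenin Ctnna1 (0.49 ± 0.09, adjusted p = 0.00283). This is 9.09% of the list, near the 6.01% of all probe sets and 7.24% of named genes. None passed the limma test with CNTF, where an unadjusted p under 0.05 was seen in 2 higher genes and 1 lower gene. With the title number as a block 5 of the 11 were higher with BMP and none lower, beside 16.7% of all probe sets called in either direction. Between BMP and CNTF, delta-catenin 2 (Ctnnd2) was 0.50 higher (adjusted p = 0.0249) and Nectin1 differed by -0.49 (adjusted p = 0.032). Both together are 18.2% of the list beside 6.23% of all probe sets. Beta-catenin (Ctnnb1) differed from control by -0.08 with BMP (adjusted p = 0.558).

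Protocadherins held the most calls with BMP, 7 of 17, with 3 higher and 4 lower. This is 41.2% of them, beside 6.01% of all probe sets and 7.24% of named genes. All 5 delta-2 protocadherins measured, a group whose tails bind regulators of actin, were called, 3 higher and 2 lower. Pcdh18 read 6750, 9650 and 14300 with BMP, 2290, 4290 and 7380 with CNTF, and 2640, 3100 and 5390 in control. Every BMP array exceeded every control array. It was 2.83-fold higher with BMP than in control (1.50 ± 0.25, adjusted p = 0.00143) and 1.20 above CNTF (adjusted p = 0.00597). Its differences within title numbers were even, from 1.27 to 1.66, unlike those of the integrin beta subunits.

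Pcdh19, the X-linked member whose loss causes a form of human epilepsy, read 2710, 3030 and 5210 with BMP, 776, 1380 and 2370 with CNTF, and 1010, 1690 and 2580 in control. BMP arrays lay above all arrays of both other groups. It was 1.94-fold higher with BMP than in control (0.96 ± 0.24, adjusted p = 0.0209, lost without control array 1 at 0.0508) and 1.18 above CNTF (adjusted p = 0.00483). Pcdh8, whose protein takes part in the uptake of N-cadherin from neuronal membranes, read 947, 1710 and 3150 with BMP, 166, 499 and 1210 with CNTF, and 315, 498 and 1220 in control. It was 2.50-fold higher with BMP (1.32 ± 0.34, adjusted p = 0.026) and 2.83-fold higher than with CNTF (adjusted p = 0.0113), with differences of 0.83 and 0.92 with the table median as the added constant. The call against control was lost without BMP array 1, 2 or 3 or control array 3, 4, 5 or 6, at adjusted p-values from 0.0508 to 0.0685.

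Pcdh17 and Pcdh10, which recruit the actin regulatory WAVE complex in neurons, moved the other way. Pcdh17 read 1270, 3470 and 7040 with BMP, 3670, 4680 and 6370 with CNTF, and 6280, 8310 and 12000 in control. It was 2.34-fold lower with BMP (-1.22 ± 0.28, adjusted p = 0.0111, lower in 6 of 6 pairs), and its other probe sets gave -1.38 and -1.27 (adjusted p = 0.00271 and 0.00607). Within title numbers the difference was -2.61 and -1.53 for numbers 1 and 2 and between -0.97 and -0.59 for the rest. With CNTF Pcdh17 differed by -0.83, lower in 6 of 6 pairs (adjusted p = 0.163, and 0.035 with the block). Pcdh17 lies between Pcdh8, which rose, and Pcdh20 in the RefSeq gene order, with 3 protein-coding genes on either side.

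Pcdh10 was the only member that passed the test with both factors. It read 1220, 1290 and 1680 with BMP, 798, 1270 and 2390 with CNTF, and 1580, 2500 and 3170 in control. It was 1.70-fold lower with BMP (-0.76 ± 0.20, adjusted p = 0.0293) and 1.76-fold lower with CNTF (-0.81 ± 0.20, adjusted p = 0.0378), each in 5 of 6 pairs and each against the same control arrays. The BMP call was lost without BMP array 1, 2, 3 or 6 or control array 1, 2 or 6 (adjusted p from 0.0506 to 0.0738), and the CNTF call without CNTF array 1, 4, 5 or 6 or control array 1, 2, 3 or 6 (0.0571 to 0.0953). BMP and CNTF differed by 0.05 (95% interval -0.38 to 0.48).

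Pcdh15, a tip-link protein of inner ear hair cells that is also known from oligodendrocyte precursors, showed the widest difference of all 55 members. It read 427, 1370 and 5080 with BMP, 2950, 5330 and 9190 with CNTF, and 4800, 7450 and 10500 in control. Only BMP array 6 reached the range of the control arrays. It was 4.81-fold lower with BMP than in control (-2.27 ± 0.38, adjusted p = 0.00154) and 3.51-fold lower than with CNTF (-1.81, adjusted p = 0.00632). The difference within title numbers was -3.85, -2.83 and -2.63 for numbers 1 to 3 and -1.60, -1.65 and -1.04 for numbers 4 to 6. CNTF differed from control by -0.45, lower in 6 of 6 pairs (adjusted p = 0.781).

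The clustered protocadherins, which arise from arrays of similar genes and give neurons a surface identity, held 1 call among 9 genes. With BMP that is 11.1%, near the 6.01% of all probe sets and 7.24% of named genes. Pcdhb9 read 1070, 1550 and 2230 with BMP, 1950, 2390 and 2740 with CNTF, and 1940, 2330 and 3140 in control. It was 1.53-fold lower with BMP (-0.61 ± 0.16, adjusted p = 0.0258, lower in 5 of 6 pairs) and differed from CNTF by -0.60 (adjusted p = 0.0288). The call against control was lost without BMP array 1, 2 or 4 or control array 1, 2 or 3 (adjusted p from 0.0502 to 0.0654), and the call against CNTF without BMP array 1, 2 or 4 or CNTF array 1, 2 or 6 (0.058 to 0.0692). Since the beta genes resemble each other in sequence, a probe set may also read a neighbouring copy. Pcdhb19 read 1690, 2420 and 2990 with BMP, 1920, 2440 and 2830 with CNTF and 1510, 2350 and 2800 in control, and Pcdhb17 had medians of 1620 with BMP, 1380 with CNTF and 1330 in control. Neither was called, though Pcdhb17 was higher with BMP in 6 of 6 pairs (0.29, adjusted p = 0.323, and 0.0201 with the block).

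Pcdh9, the delta-1 member, read 2750, 4420 and 8870 with BMP, 4270, 10500 and 14300 with CNTF, and 4350, 7620 and 8190 in control. It was lower with BMP than with CNTF in 6 of 6 pairs (-0.89, adjusted p = 0.089, and 0.000462 with the block), and its second probe set passed that test (-0.96, adjusted p = 0.0427). Pcdh20 read 535, 665 and 894 with BMP, 868, 1010 and 1840 with CNTF and 710, 1070 and 1530 in control. It was lower than control in 6 of 6 pairs, by -0.55 (adjusted p = 0.10, and 0.036 with the block).

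**Figure D4:**
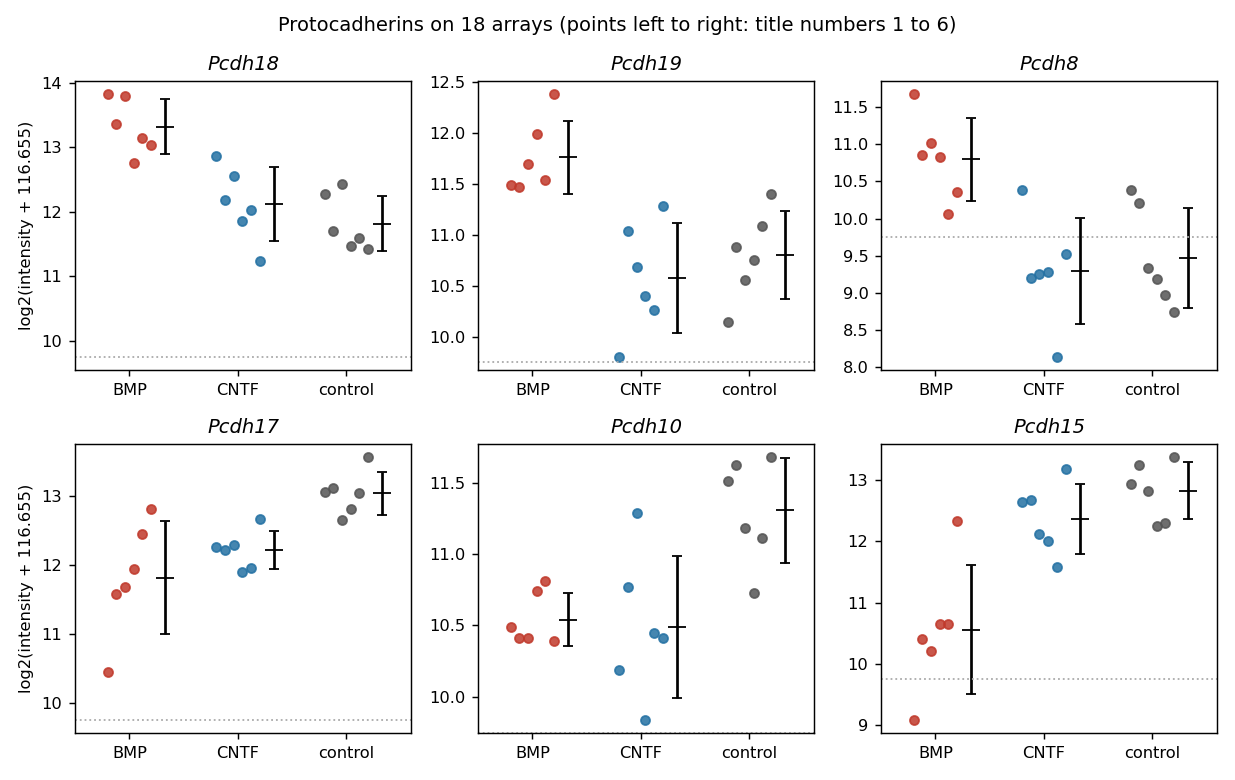
Each panel shows 1 protocadherin gene on 18 arrays, as log2(intensity + 116.655), with BMP left, CNTF in the middle and control right, the mean ± SD of 6 arrays beside each group and the table median as a dotted line. Pcdh18, Pcdh19 and Pcdh8 are higher with BMP, Pcdh17, Pcdh10 and Pcdh15 lower, and Pcdh10 is also lower with CNTF.

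Set directly against each other, BMP and CNTF differed in 11 of the 55 members, 9 higher and 2 lower with BMP, which is 20% of the members beside 6.23% of all probe sets (3.24% higher and 2.99% lower) and 7.5% of named genes. The higher ones were Itgb5, Itgb4, Itga3, Cdh3, Cdh11, Cdh20, Pcdh8, Pcdh18 and Pcdh19, and the lower ones Pcdh15 and Pcdhb9. For Cdh20 this difference came with a fall in CNTF against control, and for Itgb5, Pcdh18 and Pcdh15 with a change in BMP against control. The 6 BMP arrays did not overlap with the 6 CNTF arrays in 5 members, beside 2.95% of all probe sets. Cdh11 passed here and in neither comparison with control. With the title number as a block 16 members were called, beside 15.1% of all probe sets. It added Itga6, Pcdh9, the clustered Pcdha13 (0.36, adjusted p = 0.108, and 0.0228 with the block), Cdh10 (-0.49, adjusted p = 0.106, and 0.0354 with the block) and Pcdh20 (-0.64, adjusted p = 0.0521, and 0.017 with the block).

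Markers of several cell types differed from control on the BMP arrays. Over all probe sets 6.01% were called with BMP and 2.32% with CNTF. Of 6 listed, all 5 measured markers of oligodendrocyte precursors fell with BMP, and their summed intensity was 10200 to 71800 with BMP, 59200 to 88500 with CNTF and 78600 to 113000 in control. Among them Pdgfra differed by -1.80 (adjusted p = 0.00162) and Olig2 by -2.16 (adjusted p = 0.00536), beside the lower Pcdh15, Pcdh17 and Pcdh10. With CNTF none of the 5 passed the limma test, while 1 was lower at an unadjusted p under 0.05. Of 5 oligodendrocyte markers 2 fell with BMP, with sums of 13600 to 75700 with BMP, 67400 to 184000 with CNTF and 55600 to 162000 in control, and Mbp differed by -2.25 with BMP (adjusted p = 0.0679). All 5 oligodendrocyte markers were negative with BMP, by a median of -1.35, and 3 were lower at an unadjusted p under 0.05. Of 6 neuron markers 2 rose with BMP, and the sums were 18400 to 55400 with BMP, 14200 to 39800 with CNTF and 13100 to 24500 in control. All 6 neuron markers were positive with BMP, by a median of 0.80. Of these 5 were higher at an unadjusted p under 0.05 and 6 with the block. With CNTF 4 neuron markers were positive and 2 negative, and none passed the limma test.

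The 6 fibroblast and mural cell markers were all positive with BMP, by a median of 0.79, though 0 of 6 passed the limma test and 3 were higher at an unadjusted p under 0.05. Their summed intensity was 8150 to 52400 with BMP, 1570 to 17300 with CNTF and 1870 to 8230 in control, ranges that overlapped. Whether this sum follows Itgb5, Itga3 or Pcdh18 from array to array was not tested. Of these markers Dcn and Lum had every group mean below the table median. Of 6 astrocyte markers 1 rose with each factor, with sums of 68300 to 125000 with BMP, 112000 to 190000 with CNTF and 47700 to 83200 in control, and Gfap differed from control by 2.33 with BMP (adjusted p = 0.0867) and 3.96 with CNTF (adjusted p = 0.00708). The astrocyte list was mixed: with BMP 3 were positive and 3 negative, the lowest at -0.96, and 1 was lower at an unadjusted p under 0.05. With CNTF 4 were positive and 2 negative, the lowest at -1.4. Of these, 1 was lower at an unadjusted p under 0.05 and 1 with the block. Of 5 Schwann cell markers 1 rose with CNTF and none passed with BMP, where 2 were higher at an unadjusted p under 0.05 (sums of 779 to 1840 with BMP, 892 to 2180 with CNTF and 674 to 1040 in control), and of 5 endothelial markers 1 rose with BMP, with sums of 345 to 1070 with BMP, 555 to 873 with CNTF and 410 to 687 in control. The part of these cell types in the integrin and cadherin differences was not tested. Of the genes that report on the pathways themselves, Socs3, a target of STAT3, was 3.17 higher with CNTF (adjusted p = 3.15e-09) and 0.17 with BMP (adjusted p = 0.698), while Id1, a target of SMAD1 and SMAD5, differed by -0.50 with BMP (adjusted p = 0.406) and -0.52 with CNTF (adjusted p = 0.572).

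**Figure D5:**
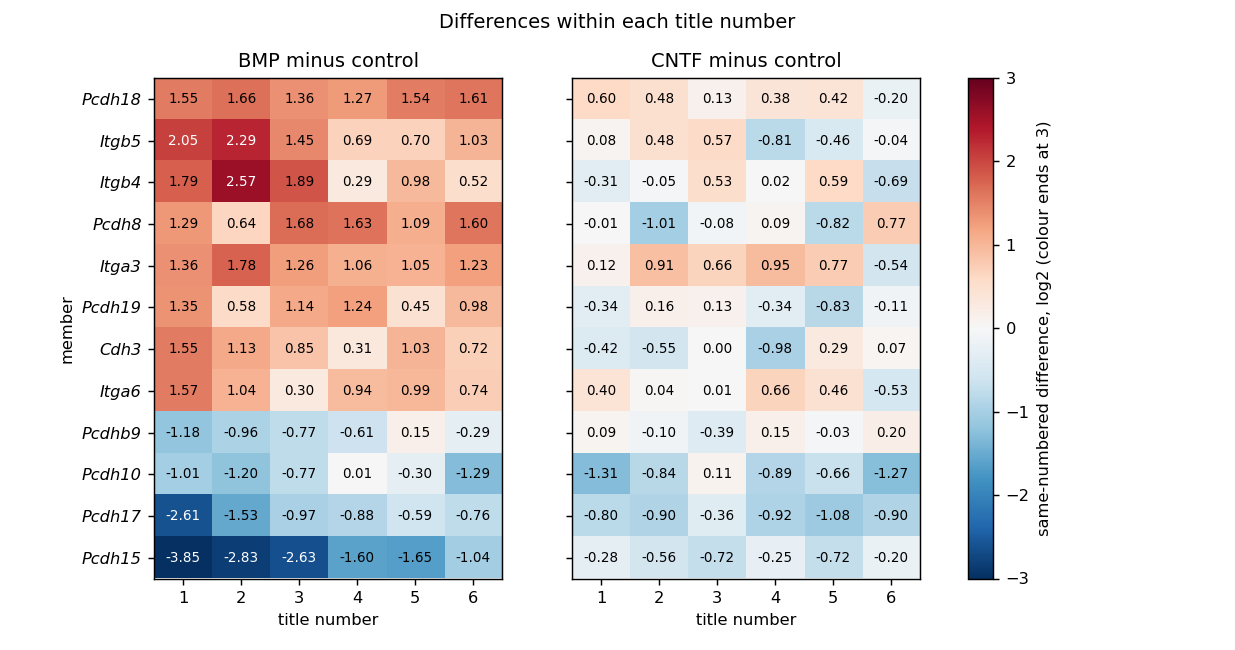
Differences from the control array of the same title number, in log2(intensity + 116.655), for the 12 members called with BMP, with BMP left and CNTF right. Red is higher and blue lower than control. Of the 12 members, Pcdhb9 has a BMP value of the other sign at number 5 and Pcdh10 at number 4, and numbers 1 to 3 hold the widest BMP differences of Itgb5, Itgb4, Pcdh17 and Pcdh15.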

How the data were processed

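The authors deposited linear probe set intensity values for 18 rat arrays of 31099 probe sets each. How they were summarised and scaled is not given in the sources used. The deposited values lay between 0.404 and 162940, with a median of 666.5 to 817.2 per array; the 75th percentiles differed by at most 0.0696 log2, under a limit of 0.3, so no further normalization was done. The number of arrays limits the precision. After removal of 57 control probe sets, 31042 were tested. The log2 of intensity plus 116.655, the table's 20th percentile, was fitted with limma 3.58.1 in R 4.3.3 (group means, trended variance, Benjamini-Hochberg over all probe sets, adjusted p under 0.05) for each factor against control and for BMP against CNTF. The test was tried on simulated data with independent noise on each array and changes added only to probe sets at or above the table median. That trial does not show how the test behaves with correlated arrays or for dim genes. Probe sets with 1 symbol numbered 20826, those with several 436 and without 9780; 4 of the 436 hold a name of these families and were not used. The symbols of 53 members matched a current RefSeq entry; Cdh4 is not analysed here. Named were all called members, the 3 brightest of each class, Itgb1, Itgav, Itga6, Itga7, Cdh2, Cdh11 and Cdh13, and up to 4 called genes per partner list; further members were named by class. Members, classes and lists were chosen with earlier results of these data known. Deviations of same-numbered arrays from their group means correlated at 0.121 to 0.491 in all 18 pairs, so the title numbers were taken to pair the arrays and a fit with them as a block was an alternative, beside those in the closing section.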

Additional observations from a re-analysis of the deposited data

Results flagged for a closer look

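For 21 of the named members, each group of 6 arrays was searched for an array far from the other 5, and 2 of 63 such groups held one, where chance gives about 1 in 20. CNTF array 4 read 11.6 log2 for Cdh11 while the other CNTF arrays lay between 12.64 and 12.96, a gap of 0.768 of the group's range. Control array 6 read 12.49 log2 for Itga6 while the other control arrays lay between 11.3 and 11.69, a gap of 0.668 of the range. The cause of either value was not tested.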

How the results depend on the processing

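The number of called members moved, mostly by over 1.5 times, under these settings, where a number left out means all 3 arrays of that title number. With BMP against control, called in 12 members, it was 20 with the replicate block, 19 with the number as a random block, 4 without number 2, 7 without number 3 and 8 without number 1, and 8 to 13 with 1 array left out. With CNTF against control, called in 4, it was 2 without number 1 and 1 (Cdh20) without number 2, 5 or 6, and 2 to 5 with 1 array left out. With BMP against CNTF, called in 11, it was 19 with the random block and 9 to 14 with 1 array left out. The block gave 16. Over all probe sets the block called 16.7% with BMP, 7.57% with CNTF and 15.1% between BMP and CNTF. For the random block and the fits with arrays left out, the share of all probe sets called was not recorded. A general change in calls therefore cannot be told apart from a change in these members. The replicate block changed no call of a named member other than those stated beside the members. Among the named members, changes of sign were seen only in differences that were not called. For Itgb1 with CNTF the value was 0 after quantile normalization or without number 6, 0.03 over the mean of all probe sets or without number 5, and -0.06 to 0.07 with 1 array left out. For Cdh2 with CNTF it was 0.07 over all probe sets, 0.01 without number 2 and -0.08 to 0.01 with 1 array left out. For Itgav between BMP and CNTF it was 0.07 over all probe sets, 0.04 without number 1, and -0.15 to 0.06 with 1 array left out. For Cdh13 between BMP and CNTF it was -0.06 over all probe sets, -0.13 without number 1, -0.11 without number 2 or 3, and -0.09 to 0.17 with 1 array left out. The added constant changed no call, but with the table median the differences of Itgb4, Itga3, Itga2b, Itga7, Cdh3, Cdh6 and Pcdh8 were smaller by over 1.5 times, with the values given beside them. Cdh11 between BMP and CNTF was 0.59 over all probe sets (adjusted p = 0.0689). The causes were not tested. The 29 members with every group mean below the table median are dim, and no background measure was used to say how far above it they lie.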
